A study of Mus musculus with 14 samples.

Results

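The spliceosome and the RNA-binding proteins that steer it are represented here by 66 of the 20638 genes counted in mouse oocytes. The genes were taken by symbol alone, as all those beginning with Hnrnp or Snrp, or with Srsf, Sf3a, Sf3b or Prpf and a digit, and each was represented by its transcript with the most counts on average, 66 of the 100 RefSeq transcripts of these genes and of the 26495 transcripts in the count files. They comprise 12 Snrp genes, 9 Sf3 genes, 13 Prpf genes, 11 Srsf genes and 21 Hnrnp genes. One of the last, Hnrnpa1l2-ps2, is named as a pseudogene.

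Introns are removed by the spliceosome, which is assembled anew on each intron from small nuclear ribonucleoprotein particles (snRNPs), each an RNA held in a ring of Sm proteins together with particle-specific proteins. The SF3a and SF3b complexes belong to the U2 snRNP and bind at the branch site, and the Prpf proteins act in or around the other particles and in the activation of the complex. SR proteins and hnRNPs bind the pre-mRNA itself, and the balance between them affects which exons are used and how the mRNA is packaged and exported. A full-grown oocyte is nearly silent in transcription and lives on stored maternal mRNA, so a transcript level measured in it reflects what was made and kept during growth.

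All libraries were made from full-grown, germinal vesicle-intact mouse oocytes, 20 oocytes in each, collected 48 h after 5 IU of eCG from females 4 to 6 weeks old. Ago2 fl/fl oocytes (3 libraries) carried floxed, functional Ago2, which the labels call wild-type. Ago2 ADH oocytes (3 libraries) came from Ago2 fl/ADH; Cre/+ females, in which Zp3-Cre, active only in growing oocytes, removes the floxed copy and leaves an allele whose protein cannot cleave RNA. Ago2 null oocytes (2 libraries) lacked Ago2 after deletion by the same Cre. Dicer WT and oocyte-specific Dicer KO oocytes (3 libraries each) formed a separate pair, and the Cre status of the Dicer WT females is not given in the sources used here. Each library pooled oocytes of 3 or 4 mice, collected anew for each replicate, on a mixed, mostly C57BL6 background. Ago2 is the Argonaute protein that cleaves RNAs paired with endogenous siRNAs, and Dicer makes those siRNAs. The comparisons ask how the transcriptome differs when slicing, Ago2 or Dicer is missing. The study's breeding scheme lists Ago2 fl/fl without Cre and both Ago2 mutants with it, so Cre and genotype cannot be told apart there. Ago2 ADH oocytes also hold a single Ago2 allele, so lost slicing and a lower dose of Ago2 cannot be told apart.

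Depth ranged from 29380403 to 58285057 transcript counts per library, and 3 counts corresponded to 0.0515 to 0.102 CPM, the count relative to the library total after scaling by the TMM factors of edgeR. No pair of libraries of one group agreed within sampling noise. The targeted Ago2 transcript averaged 24.7 CPM in Ago2 fl/fl, 13.1 in Ago2 ADH and 6.22 in Ago2 null, whereas Dicer1 averaged 758 CPM in Dicer WT and 1.8e+03 in Dicer KO, so the whole-transcript count of Dicer1 does not show the deleted exon. All 14 oocyte markers were detected in every group. The summed level of 15 cumulus and granulosa cell markers was low, from 61.7 to 107 CPM, and ran lower in Ago2 ADH (69.3 to 74.5 CPM) and Ago2 null (61.7 to 65.6) than in Ago2 fl/fl (80.6 to 87.6), and lower in Dicer KO (84.0 to 90.2) than in Dicer WT (99.1 to 107). Alignments of reads with several positions, which were not counted on any transcript, amounted to 0.776 ± 0.0298 per count in Ago2 fl/fl, 2.18 ± 0.0620 in Ago2 ADH, 0.630 ± 0.102 in Dicer WT and 1.41 ± 0.190 in Dicer KO (SD, n = 3 each), and 2.17 ± 0.0799 in Ago2 null (SD, n = 2). Both measures moved with genotype in each mutant against its control, and their part in the results was not tested.

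In control oocytes the splicing genes were expressed well above the usual gene. Per kb of transcript, their median level was 17.4 CPM in Ago2 fl/fl against 3.80 CPM for all genes tested, and 15.4 against 3.68 CPM in Dicer WT. Of the 64 members tested in the first 52 lay above that median, and of 65 in the second 53. Averaged over both control groups, in CPM per kb, the most abundant member of each family was Srsf2 (182), Hnrnpa3 (168), Snrpg (97.4), Prpf38a (44.1) and Sf3b1 (37.5). The least abundant were Srsf12 (0.0784), Prpf40b (0.406), Hnrnpr (0.999), Snrpn (1.87) and Sf3a2 (2.54). Hnrnpr owes part of its place to an annotated transcript of 21452 bases. Srsf12 was close to the floor, with 0.259, 0.203 and 0.0574 CPM in Ago2 fl/fl.

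Most splicing genes changed little in the mutants. The share that rose was lower than among all genes in each comparison, and the share that fell was close to that of all genes in Ago2 ADH and Dicer KO and above it in Ago2 null, a description with no test. In Ago2 ADH against Ago2 fl/fl, 7 of the 64 members tested rose and 13 fell at a false discovery rate of 1% (quasi-likelihood test of edgeR, p-values adjusted by Benjamini-Hochberg over all transcripts), where 40.9% of all genes tested were called, 21.0% up and 19.9% down. The members' shares were 10.9% up and 20.3% down. Unless another tool is named, a called gene is one that passed this test. In Ago2 null, which shares its controls with the Ago2 ADH comparison, 5 of 65 rose and 16 fell against a background of 37.3%, 18.6% up and 18.7% down, the members' shares being 7.69% and 24.6%. In Dicer KO against Dicer WT, 5 of 65 rose and 10 fell against a background of 34.5%, 16.9% up and 17.6% down, the members' shares being 7.69% and 15.4%. Genes averaging 100 normalized counts or more fell more often than all genes. Of these, 2591 of 10554 fell in Ago2 ADH, 2533 of 10622 in Ago2 null and 2204 of 9840 in Dicer KO. Against them the members' share that fell was close in Ago2 null and lower in Ago2 ADH and Dicer KO. The counts measure relative abundance, so less RNA per oocyte and lower levels of single transcripts cannot be told apart. With library size as the sole scaling the split was 4 up and 19 down in Ago2 ADH and 3 up and 19 down in Dicer KO. That scaling also moved the median log2 fold change of all genes, from 0.0119 to -0.0328 in Ago2 ADH. In Dicer KO that median went from 0.000401 to -0.0606. The share of all genes called under that scaling is not given here. Without Ago2 fl/fl replicate 3 the Ago2 ADH total was 13 in place of 20. The number called up in Ago2 ADH was 4 without that library or without Ago2 ADH replicate 3, the number called down in Ago2 null was 9 without Ago2 fl/fl replicate 2, and the number called up in Dicer KO was 3 without Dicer WT replicate 2, Dicer WT replicate 3 or Dicer KO replicate 2.

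The shares called, 31.25% in Ago2 ADH, 32.3% in Ago2 null and 23.1% in Dicer KO, lay below the background in each comparison, a description with no test, although the members were measured more precisely than the usual gene. The median SE of their log2 fold changes was 0.0724 in Ago2 ADH against 0.115 for all genes tested. Among genes averaging 100 normalized counts or more the background was higher, at 47.6%, 44.8% and 41.9%. The median absolute log2 fold change of the members was 0.15 in Ago2 ADH against 0.35 for all genes, 0.23 against 0.38 in Ago2 null and 0.21 against 0.37 in Dicer KO. Changes of at least 2-fold were seen in 3 members in Ago2 ADH (4.69%, where 17.0% of all genes reached that size). They were seen in 3 in Ago2 null (4.62% against 18.8%) and in 2 in Dicer KO (3.08% against 17.2%). The signed medians were -0.05, -0.11 and -0.11. For 32 members the estimate and 2 SE on either side stayed within 0.5 of no change in all 3 comparisons, Srsf2, Sf3b1 and Hnrnpa1 among them. The share of all genes that did so is not given here, and a smaller SE makes this limit easier to meet.

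**Figure D1:**
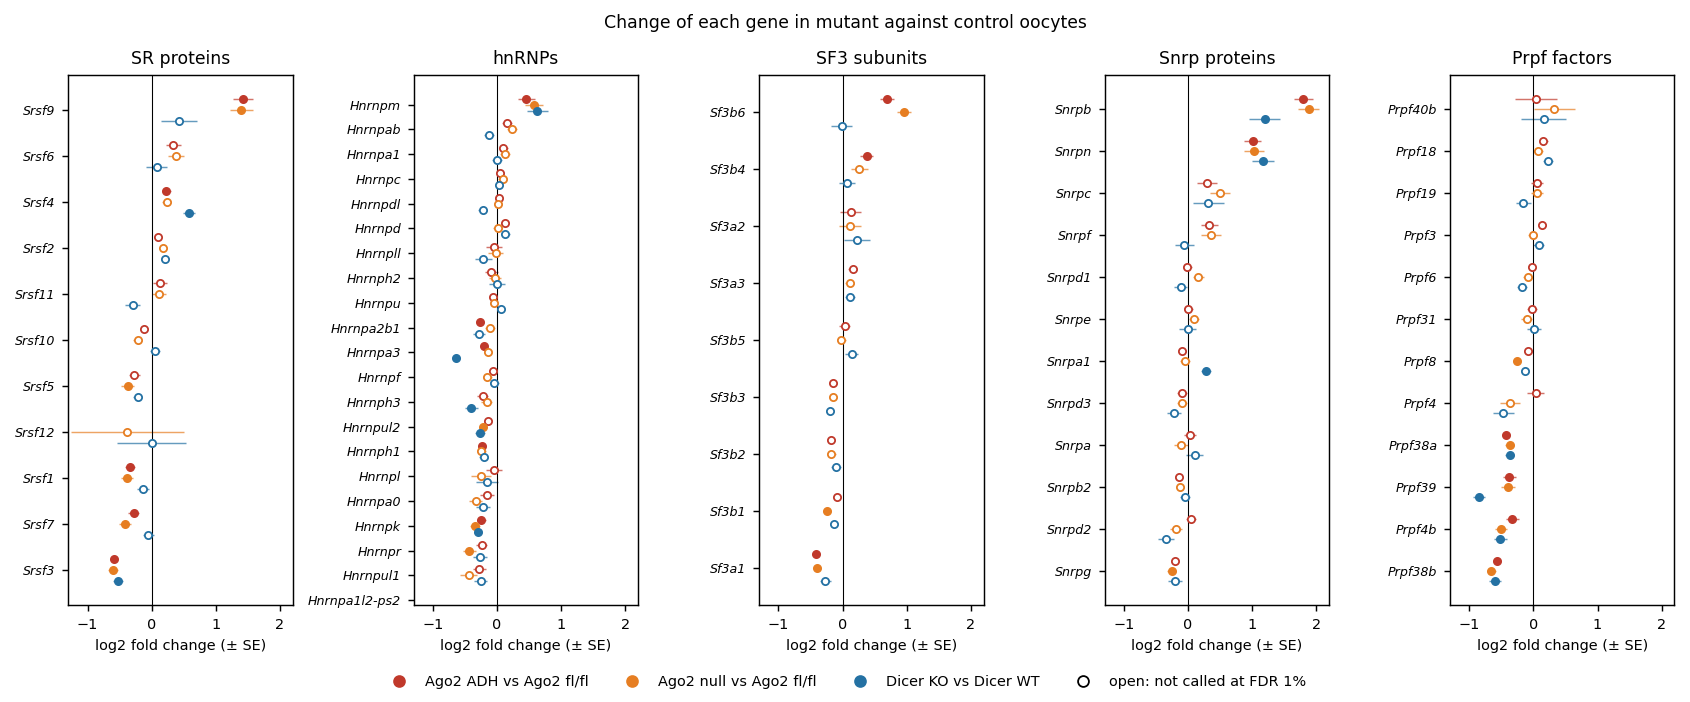
Log2 fold change with its standard error (x axis) of the members (y axis), in 1 panel per family, for Ago2 ADH and Ago2 null against Ago2 fl/fl and Dicer KO against Dicer WT. Filled points passed an FDR of 1%. Most members sit close to 0, while Snrpb, Snrpn and Srsf9 reach 1.80, 1.01 and 1.43 in Ago2 ADH. Hnrnpa1l2-ps2 has no point and Srsf12 has none for Ago2 ADH, as their counts were too low for the test.

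Of the 64 members tested throughout, 10 (15.6%) were called in all 3 comparisons in the same direction, against 23.5% of all 13310 genes. That is a description with no test. No member rose in one comparison and fell in another. Snrpb, Snrpn and Hnrnpm were higher in all 3 kinds of mutant, and Srsf3, Hnrnpk, Prpf38a, Prpf38b, Prpf39 and Prpf4b were among those that were lower. In all, 28 members were called at least once, 8 up and 20 down, and 36 of the 64 tested throughout were called in none. Of all 13310 genes tested throughout, 54.7% were called at least once, 27.7% up and 27.4% down, and 0.413% both up and down, against 43.8%, 12.5% and 31.2% of the members. The 8 members called up had a median level of 5.59 CPM per kb in Ago2 fl/fl, from 1.46 for Hnrnpm to 52.8 for Snrpa1. The 20 called down had a median of 27.1 CPM per kb, from 1.09 for Hnrnpr to 155 for Hnrnpa3, and the 36 called in none a median of 17.4 CPM per kb.

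The promoters of 4 genes called in all 3 comparisons, from 3 families, are shown because each of these genes was called in the same direction throughout, 3 of them down and Hnrnpm up. They are RefSeq windows of 300 bases around the transcription start on GRCm38.p6, and capitals mark the GC box GGGCGG, the CCAAT box CCAAT and the TATA box TATAAA on either strand. The windows are chr17:29032410-29032709 on the plus strand for Srsf3, chr3:108911680-108911979 on the minus strand for Prpf38b, chr12:65036084-65036383 on the plus strand for Prpf39 and chr17:33685409-33685708 on the minus strand for Hnrnpm.
Srsf3: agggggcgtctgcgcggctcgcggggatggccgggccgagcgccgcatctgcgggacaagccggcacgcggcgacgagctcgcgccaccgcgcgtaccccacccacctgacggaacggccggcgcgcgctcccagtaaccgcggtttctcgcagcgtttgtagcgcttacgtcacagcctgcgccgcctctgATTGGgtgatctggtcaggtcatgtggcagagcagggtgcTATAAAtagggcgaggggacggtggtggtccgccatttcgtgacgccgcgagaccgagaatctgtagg
Prpf38b: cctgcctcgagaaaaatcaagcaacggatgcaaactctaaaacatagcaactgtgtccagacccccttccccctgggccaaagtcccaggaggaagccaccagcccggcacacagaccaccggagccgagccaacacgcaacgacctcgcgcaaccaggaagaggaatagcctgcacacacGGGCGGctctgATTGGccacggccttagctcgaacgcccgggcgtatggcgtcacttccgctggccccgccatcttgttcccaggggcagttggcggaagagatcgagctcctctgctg
Prpf39: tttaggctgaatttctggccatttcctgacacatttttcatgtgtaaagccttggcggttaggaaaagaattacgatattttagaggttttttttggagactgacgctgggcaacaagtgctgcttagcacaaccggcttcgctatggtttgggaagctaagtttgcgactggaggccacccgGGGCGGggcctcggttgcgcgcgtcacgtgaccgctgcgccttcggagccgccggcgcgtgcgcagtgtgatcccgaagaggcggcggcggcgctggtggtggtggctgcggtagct
Hnrnpm: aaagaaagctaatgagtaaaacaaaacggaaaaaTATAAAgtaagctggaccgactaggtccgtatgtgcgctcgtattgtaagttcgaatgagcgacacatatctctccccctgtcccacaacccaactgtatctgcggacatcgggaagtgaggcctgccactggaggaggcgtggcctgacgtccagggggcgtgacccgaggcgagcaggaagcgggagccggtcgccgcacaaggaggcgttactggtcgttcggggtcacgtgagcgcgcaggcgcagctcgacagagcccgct
Srsf3 holds 1 CCAAT box and 1 TATA box, Prpf38b 1 GC box and 1 CCAAT box, Prpf39 1 GC box, and Hnrnpm 1 TATA box. They hold 42, 21, 27 and 27 CpG dinucleotides.

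Promoter windows were matched by symbol for 58 of the 66 members, 78 windows in all. Their median number of CpG dinucleotides was 25, against 7 over the 32851 windows of all genes. The GC box GGGCGG stood in 62.8% of the members' windows and 35.7% of all windows. The ETS-type motif CCGGAAG stood in 32.1% and 8.86%, and CCAAT in 47.4% and 37.4%. TATAAA stood in 10.3% and 13.6%. Both strands were searched, neighbouring matches of different strings can share bases, and a match is a stretch of letters, not a bound site.

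Of 12 snRNP protein genes tested, 2 rose and 0 fell in Ago2 ADH with edgeR's quasi-likelihood test. With the same test 2 rose and 1 fell in Ago2 null and 3 rose and 0 fell in Dicer KO. The shares called were 16.7%, 25% and 25%, against 40.9%, 37.3% and 34.5% of all genes. DESeq2 also called 0 down in Ago2 ADH and Dicer KO, and 2 and 1 genes there were lower at an unadjusted p under 0.05. Of all genes tested, 8058 of 13979 and 7241 of 13799 had such a p there in either direction. Snrpb, which encodes the SmB core protein present in every Sm-class snRNP, changed most of all members. It stood at 3.92, 3.13 and 2.75 CPM in Ago2 fl/fl, 11.7, 11.04 and 10.4 in Ago2 ADH and 10.7 and 12.8 in Ago2 null, and 2.51, 1.74 and 1.84 in Dicer WT and 3.77, 4.67 and 5.42 in Dicer KO. Every mutant library lay above every control library of its own pair. The log2 fold change was 1.80 (SE 0.141, adjusted p = 3.84e-09) in Ago2 ADH, 1.89 (SE 0.162, adjusted p = 6.41e-08) in Ago2 null and 1.19 (SE 0.2397, adjusted p = 0.000455) in Dicer KO. The ratio was 3.49-fold in Ago2 ADH and 2.29-fold in Dicer KO.

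Snrpn encodes SmN, a close relative of SmB, from an imprinted locus at chr7:59982495-60450177 (mm10). Its levels were 4.23, 3.74 and 3.67 CPM in Ago2 fl/fl, 7.31, 7.78 and 7.61 in Ago2 ADH and 8.45 and 7.03 in Ago2 null, and 3.80, 4.08 and 3.72 in Dicer WT and 9.68, 8.46 and 8.03 in Dicer KO. Again no mutant library overlapped a control library. It changed by 1.01 (adjusted p = 4.64e-06) in Ago2 ADH, 1.03 (adjusted p = 4.41e-05) in Ago2 null and 1.18 (adjusted p = 1.64e-05) in Dicer KO on the log2 scale. Snurf, the upstream reading frame of the same transcription unit, which shares 216 exon bases with Snrpn and may share reads with it, rose by 0.75, 0.74 and 0.84. Reads that aligned equally well to Snrpb and Snrpn would have been counted on neither.

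Snrpa1, the A' protein of the U2 snRNP, behaved differently in the 2 experiments. It stood at 70.7, 64.9 and 62.0 CPM in Ago2 fl/fl, 61.5, 61.5 and 55.9 in Ago2 ADH and 63.4 and 60.7 in Ago2 null, and 34.5, 35.8 and 33.4 in Dicer WT and 40.5, 43.3 and 41.6 in Dicer KO. In Dicer KO all libraries were above Dicer WT, with a log2 fold change of 0.28 (adjusted p = 0.00825), whereas in Ago2 ADH all were below Ago2 fl/fl, at -0.10 (adjusted p = 0.222), and Ago2 null overlapped it. The change in Ago2 ADH minus that in Dicer KO was -0.43 (SE 0.0999, adjusted p = 0.00858). That value, like the differences given for other genes, came from a single fit of both pairs with its own TMM scaling. It therefore need not equal the subtraction of the 2 changes printed. The median difference of all genes in that fit was -0.0267. With a replicate block neither the call of a difference for Snrpa1 nor its Dicer KO call was kept. Leaving out any single Dicer library ended the Dicer KO call, with values of 0.25 to 0.30, as did no filter on low counts and library size alone, and the difference was lost without any one of Ago2 fl/fl replicates 1 and 2, Ago2 ADH replicates 1, 2 and 3, Dicer WT replicates 1, 2 and 3 and Dicer KO replicates 1, 2 and 3 (-0.47 to -0.37), and also with RLE size factors and library size alone.

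Snrpg, an Sm ring protein and the most abundant of the family per length, stood at 142, 137 and 131 CPM in Ago2 fl/fl, 106, 131 and 108 in Ago2 ADH and 104 and 119 in Ago2 null, and 65.1, 80.4 and 60.8 in Dicer WT and 70.3, 54.4 and 53.6 in Dicer KO. It passed the test in Ago2 null, at -0.26 (adjusted p = 0.00470), and that call was lost without any one of Ago2 fl/fl replicates 1, 2 and 3 and Ago2 null replicate 1 (-0.36 to -0.16) and with a single fit of all 5 groups. A replicate block also ended that call. The Snrpg estimate in Ago2 ADH was -0.20 (adjusted p = 0.0151). Snrpe, another ring protein, had the smallest fold changes of the family, at most 0.100 on the log2 scale, with 42.8, 40.2 and 37.1 CPM in Ago2 fl/fl, 37.6, 39.7 and 39.1 in Ago2 ADH, 41.9 and 41.4 in Ago2 null, 15.5, 16.4 and 13.3 in Dicer WT and 17.0, 14.5 and 13.4 in Dicer KO, all mutant ranges overlapping those of their controls. The other ring genes Snrpd1, Snrpd2, Snrpd3 and Snrpf and the U1 and U2 proteins Snrpa, Snrpc and Snrpb2 were not called in any of the 3 comparisons. Of the exon bases of Snrpf, 65.9% also lie in exons of Ccdc38, which may affect its counts.

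Of the 9 SF3 genes, 2 rose and 1 fell in Ago2 ADH and 1 rose and 2 fell in Ago2 null, 33.3% in each against 40.9% and 37.3% of all genes. In Dicer KO 0 passed edgeR's quasi-likelihood test, where 34.5% of all genes did. There 1 passed with DESeq2, and 3 were lower at an unadjusted p under 0.05. Of all genes tested there, 7241 of 13799 had such a p in either direction. Sf3b6, the small SF3b subunit that sits at the branch-point adenosine, stood at 11.04, 9.75 and 9.53 CPM in Ago2 fl/fl, 17.0, 14.4 and 16.1 in Ago2 ADH and 19.6 and 18.5 in Ago2 null, and 7.86, 8.44 and 6.89 in Dicer WT and 7.26, 8.42 and 7.21 in Dicer KO. Its Ago2 mutant libraries were all above Ago2 fl/fl, and the Dicer libraries overlapped. The change was 0.70 (SE 0.106, adjusted p = 2.24e-05) in Ago2 ADH and 0.95 (SE 0.109, adjusted p = 1.83e-06) in Ago2 null, and -0.01 (adjusted p = 0.952) in Dicer KO. The test of the Ago2 ADH change against the Dicer KO change gave 0.66 (adjusted p = 0.0229), which does not pass the threshold, while DESeq2 called it.

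Sf3a1, a U2 snRNP subunit that joins the particle late in its assembly, moved the other way. Its levels were 122, 114 and 111 CPM in Ago2 fl/fl, 82.1, 92.0 and 77.8 in Ago2 ADH and 88.9 and 81.8 in Ago2 null, and 78.7, 82.4 and 79.0 in Dicer WT and 75.5, 63.8 and 58.9 in Dicer KO. All mutant libraries lay below their controls. The fall was called in Ago2 ADH, -0.42 (adjusted p = 1.4e-05), and Ago2 null, -0.40 (adjusted p = 0.000108), and not in Dicer KO, -0.27 (adjusted p = 0.0124), where DESeq2 called it. Sf3b1, the large subunit that clamps the branch helix and the most abundant of the family per length, stood at 207, 207 and 213 CPM in Ago2 fl/fl, 190.0, 193 and 187 in Ago2 ADH and 165 and 178 in Ago2 null, and 253, 249 and 267 in Dicer WT and 239, 238 and 220.4 in Dicer KO. Every Ago2 mutant library was below every Ago2 fl/fl library, and every Dicer KO library below Dicer WT. Such separation was common, in 37, 43 and 35 members in the 3 comparisons, of which 20, 21 and 15 were called. It was read on CPM scaled over all 14 libraries, and its share among all genes is not given here. The Sf3b1 change was -0.09 (adjusted p = 0.112) in Ago2 ADH, -0.25 (adjusted p = 0.00242) in Ago2 null and -0.13 (adjusted p = 0.0760) in Dicer KO. The Ago2 null call was lost without any one of Ago2 fl/fl replicates 2 and 3 and Ago2 null replicate 1 (-0.30 to -0.19). It was also lost with a replicate block.

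Sf3b4, a subunit with RNA recognition motifs that contacts pre-mRNA near the branch site, was at 18.1, 15.2 and 14.3 CPM in Ago2 fl/fl, 20.6, 18.2 and 21.1 in Ago2 ADH and 21.4 and 15.7 in Ago2 null, and at 12.5, 13.9 and 12.04 in Dicer WT and 13.5, 12.9 and 13.8 in Dicer KO. The rise in Ago2 ADH, 0.38 (adjusted p = 0.00466), was lost without any one of Ago2 fl/fl replicates 2 and 3 and Ago2 ADH replicates 1 and 3 (0.31 to 0.47), with a single fit of all 5 groups and with library size alone, and the Ago2 null range overlapped the control range. Sf3b5, a small SF3b subunit, was the least changed of the family, at 50.2, 50.4 and 47.3 CPM in Ago2 fl/fl, 45.8, 57.2 and 43.3 in Ago2 ADH and 46.9 and 47.8 in Ago2 null, with 21.3, 23.1 and 21.8 in Dicer WT and 26.0, 24.9 and 22.1 in Dicer KO. Sf3a2, the least abundant per length, gave 0.13, 0.11 and 0.22 with SEs of 0.160, 0.173 and 0.206, and none of the 3 was called. Of its exon bases 16.1% are shared with Plekhj1.

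**Figure D2:**
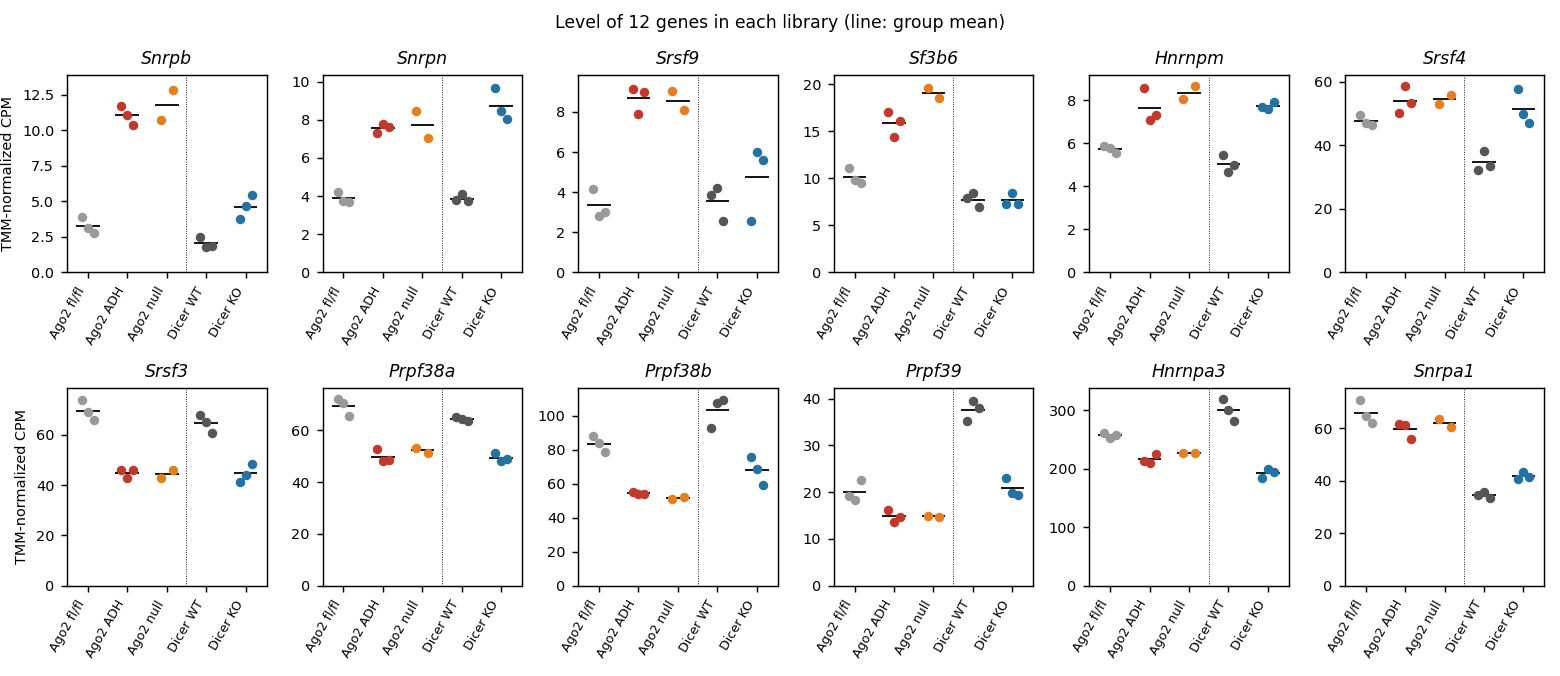
TMM-normalized CPM (y axis, from 0) of 12 members in each library, by group (x axis), with a line at the group mean and a dotted line between the Ago2 and the Dicer libraries. Snrpb goes from 2.75 to 3.92 CPM in Ago2 fl/fl to 10.4 to 11.7 CPM in Ago2 ADH, Srsf3 falls in all mutants, and Hnrnpa3 falls further in Dicer KO than in Ago2 ADH.

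The called Prpf genes all fell, at shares of 38.5%, 46.2% and 38.5% where 19.9%, 18.7% and 17.6% of all genes fell, a description with no test. Of 13 tested, 5 fell in Ago2 ADH, 6 in Ago2 null and 5 in Dicer KO. With edgeR's quasi-likelihood test or with DESeq2, 0 rose in any of the 3. At an unadjusted p under 0.05, 1 was higher in Ago2 ADH and 1 in Dicer KO. Of all genes tested, 8058 of 13979 and 7241 of 13799 had such a p there in either direction. Prpf38a, Prpf38b, Prpf39 and Prpf4b were called in all 3 comparisons, and Prpf8, the scaffold of the U5 snRNP at the catalytic centre, in Ago2 null. Prpf38b, a relative of the activation factor Prpf38a, had the largest fall of the family in the Ago2 mutants. Its levels were 88.3, 83.7 and 78.7 CPM in Ago2 fl/fl, 55.1, 54.2 and 53.7 in Ago2 ADH and 51.0 and 52.2 in Ago2 null, and 92.8, 108 and 109 in Dicer WT and 75.6, 68.5 and 59.5 in Dicer KO. Each mutant library was below each of its controls, and the log2 fold changes were -0.57 (SE 0.0596, adjusted p = 1.87e-07), -0.66 (SE 0.0709, adjusted p = 1.01e-06) and -0.60 (SE 0.0869, adjusted p = 1.55e-05) in Ago2 ADH, Ago2 null and Dicer KO.

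Prpf38a, which joins the precatalytic spliceosome and is needed for its activation, stood at 72.3, 70.7 and 65.6 CPM in Ago2 fl/fl, 52.7, 48.2 and 48.7 in Ago2 ADH and 53.4 and 51.2 in Ago2 null, and 65.0, 64.2 and 63.5 in Dicer WT and 51.3, 48.04 and 49.0 in Dicer KO. No mutant library reached a control library. Its changes were -0.43 (adjusted p = 1.58e-05) in Ago2 ADH, -0.37 (adjusted p = 0.000377) in Ago2 null and -0.37 (adjusted p = 0.000312) in Dicer KO. Prpf39, the relative of a yeast U1 snRNP protein, stood at 19.1, 18.3 and 22.5 CPM in Ago2 fl/fl, 16.2, 13.7 and 14.7 in Ago2 ADH and 14.9 and 14.7 in Ago2 null, and 35.1, 39.4 and 38.1 in Dicer WT and 23.1, 19.9 and 19.4 in Dicer KO. Its fall in Dicer KO, -0.85 (SE 0.0979, adjusted p = 9.63e-07), was the largest of any member in that comparison. In the Ago2 mutants it was -0.38 (adjusted p = 0.00501) and -0.39 (adjusted p = 0.00723), calls that were lost without any one of Ago2 fl/fl replicate 3 and Ago2 ADH replicates 2 and 3 in the first case (-0.45 to -0.28) and without any one of Ago2 fl/fl replicate 3 and Ago2 null replicates 1 and 2 in the second (-0.44 to -0.29).

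For Prpf39, the change in Ago2 ADH minus that in Dicer KO was 0.42 (adjusted p = 0.0707). A replicate block also ended its Ago2 null call. Its annotated exons share 599 bases with those of the neighbouring gene Fkbp3, and reads were counted without strand. Fkbp3 itself rose by 0.49 in Ago2 ADH and 0.45 in Ago2 null and gave 0.17 (adjusted p = 0.310) in Dicer KO. Prpf31, a protein of the U4/U6.U5 tri-snRNP, was the least changed of the family, at 22.9, 23.2 and 22.4 CPM in Ago2 fl/fl, 22.2, 21.8 and 21.5 in Ago2 ADH and 20.5 and 20.7 in Ago2 null, with 18.1, 17.7 and 18.7 in Dicer WT and 20.3, 18.6 and 15.7 in Dicer KO. Its log2 fold changes were -0.02, -0.11 and 0.01. Prpf40b, the least abundant per length, ranged from 0.936 to 2.18 CPM over all libraries, with overlapping groups throughout.

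SR genes were called in both directions, as were all genes. Of 10 tested in Ago2 ADH, 2 rose and 3 fell, of 11 in Ago2 null 1 rose and 4 fell, and of 11 in Dicer KO 1 rose and 1 fell. In Ago2 ADH that is 20% up and 30% down, against 21.0% and 19.9% of all genes. In Ago2 null the shares were 9.09% up and 36.4% down, against 18.6% and 18.7%. In Dicer KO they were 9.09% in each direction, against 16.9% up and 17.6% down. Srsf3, the smallest SR protein, which acts in splicing and in mRNA export, fell in all 3 comparisons. Its levels were 74.0, 69.1 and 65.8 CPM in Ago2 fl/fl, 45.9, 42.9 and 46.1 in Ago2 ADH and 42.9 and 46.2 in Ago2 null, and 67.8, 65.1 and 60.9 in Dicer WT and 41.4, 44.2 and 48.5 in Dicer KO. The mutant libraries were separated from the controls throughout. The log2 fold change was -0.58 (SE 0.0651, adjusted p = 4.65e-07) in Ago2 ADH, -0.61 (SE 0.0749, adjusted p = 4.75e-06) in Ago2 null and -0.53 (SE 0.0804, adjusted p = 2.78e-05) in Dicer KO, and it was called under every alternative tried.

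Srsf9, an SR protein with a short arginine-serine tail, stood at 4.15, 2.83 and 3.02 CPM in Ago2 fl/fl, 9.16, 7.92 and 8.998 in Ago2 ADH and 9.04 and 8.09 in Ago2 null, and 3.85, 4.21 and 2.57 in Dicer WT and 2.58, 6.01 and 5.62 in Dicer KO. In the Ago2 mutants every library was above every control, while in Dicer KO 1 of 3 libraries, at 2.58 CPM, lay within the Dicer WT range. The changes were 1.43 (SE 0.156, adjusted p = 3.46e-07) in Ago2 ADH, 1.40 (SE 0.175, adjusted p = 5.29e-06) in Ago2 null and 0.42 (SE 0.276, adjusted p = 0.224) in Dicer KO. The change in Ago2 ADH minus that in Dicer KO, 0.95 (adjusted p = 0.0848), did not pass the threshold, so the size of the change is not shown to differ between them.

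Srsf1, the founding SR protein, fell in the Ago2 mutants and was at 29.6, 30.0 and 29.2 CPM in Ago2 fl/fl, 21.8, 23.0 and 23.5 in Ago2 ADH and 19.97 and 24.1 in Ago2 null, and 45.7, 44.1 and 47.8 in Dicer WT and 45.1, 42.9 and 36.7 in Dicer KO. Its changes were -0.33 (adjusted p = 0.00121) in Ago2 ADH, -0.39 (adjusted p = 0.00268) in Ago2 null and -0.14 (adjusted p = 0.216) in Dicer KO. The Ago2 null call was lost without any one of Ago2 fl/fl replicate 2 and Ago2 null replicate 1 (-0.53 to -0.25). Srsf4, a long SR protein, was at 49.7, 47.0 and 46.4 CPM in Ago2 fl/fl, 50.2, 58.6 and 53.5 in Ago2 ADH and 53.1 and 56.0 in Ago2 null, and 32.3, 38.2 and 33.5 in Dicer WT and 57.8, 49.8 and 47.0 in Dicer KO. It rose by 0.58 (adjusted p = 5.62e-05) in Dicer KO and by 0.23 (adjusted p = 0.00803) in Ago2 ADH, and gave 0.23 (adjusted p = 0.0129) in Ago2 null, where DESeq2 called it. Its Ago2 ADH call was lost without any one of Ago2 fl/fl replicates 1, 2 and 3 and Ago2 ADH replicates 2 and 3 (0.17 to 0.27). That call was also lost with a single fit of all 5 groups, with a replicate block and with library size alone. Of the exon bases of Srsf4, 43.0% overlap another annotated gene, Gm12992.

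Srsf2, a constitutive SR protein of nuclear speckles and the most abundant member per length, changed little. It was at 331, 337 and 315 CPM in Ago2 fl/fl, 354, 339 and 329.8 in Ago2 ADH and 359 and 363 in Ago2 null, and 357, 366 and 371 in Dicer WT and 449.9, 406 and 397 in Dicer KO. The changes were 0.10 (adjusted p = 0.0715), 0.18 (adjusted p = 0.0129) and 0.20 (adjusted p = 0.0121), of which edgeR's quasi-likelihood test called none. DESeq2 and the stricter filter on low counts called it up in Ago2 null and Dicer KO, whose libraries all lay above their controls. Its exons share bases with Mettl23 and Mfsd11. Srsf7 was called down in both Ago2 mutants and Srsf5 in Ago2 null. Srsf6, Srsf10 and Srsf11 were called in none of the 3 comparisons.

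Of 20 hnRNP genes tested, 1 rose and 4 fell in Ago2 ADH, 1 rose and 3 fell in Ago2 null and 1 rose and 4 fell in Dicer KO. The shares that fell, 20%, 15% and 20%, were near those of all genes, 19.9%, 18.7% and 17.6%. The share that rose was 5% in each, against 21.0%, 18.6% and 16.9% of all genes. Hnrnpa3, an A/B-type hnRNP and the most abundant of the family per length, fell further in Dicer KO than in Ago2 ADH. It stood at 261, 252 and 258 CPM in Ago2 fl/fl, 212, 210.0 and 224 in Ago2 ADH and 226 and 226 in Ago2 null, and 318, 301 and 281 in Dicer WT and 185, 198 and 194 in Dicer KO. All mutant libraries were below their controls. The log2 fold change was -0.64 (SE 0.0625, adjusted p = 1.09e-07) in Dicer KO, -0.21 (SE 0.0482, adjusted p = 0.00147) in Ago2 ADH and -0.14 (SE 0.0544, adjusted p = 0.0367) in Ago2 null. The change in Ago2 ADH minus that in Dicer KO was 0.38 (SE 0.0774, adjusted p = 0.00283). That call was lost without any one of Ago2 fl/fl replicate 2, Ago2 ADH replicate 3 and Dicer WT replicate 1 (0.33 to 0.42), and with a replicate block.

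Hnrnpm, an hnRNP that binds GU-rich RNA, was the hnRNP gene that rose, at 5.89, 5.79 and 5.57 CPM in Ago2 fl/fl, 8.55, 7.06 and 7.31 in Ago2 ADH and 8.04 and 8.64 in Ago2 null, and 5.43, 4.68 and 4.98 in Dicer WT and 7.68, 7.61 and 7.92 in Dicer KO. Every mutant library was above its controls. The changes were 0.46 (adjusted p = 0.00600) in Ago2 ADH, 0.57 (adjusted p = 0.00222) in Ago2 null and 0.63 (adjusted p = 0.00447) in Dicer KO. The Ago2 ADH call was lost without any one of Ago2 fl/fl replicates 1, 2 and 3 and Ago2 ADH replicates 1 and 3 (0.36 to 0.52), the Ago2 null call without Ago2 null replicate 2 (0.52 to 0.63) and the Dicer KO call without any one of Dicer WT replicates 2 and 3 and Dicer KO replicates 2 and 3 (0.57 to 0.68). The Ago2 ADH call was also lost with a single fit of all 5 groups, and the Ago2 ADH and Dicer KO calls with library size alone. With a replicate block the Ago2 null and Dicer KO calls of Hnrnpm were lost. Its exons share 14.7% of their bases with March2.

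Hnrnpk, which binds C-rich RNA and DNA through KH domains, fell in all 3 comparisons from 89.8, 92.9 and 103 CPM in Ago2 fl/fl to 74.4, 74.0 and 85.1 in Ago2 ADH and 69.3 and 76.5 in Ago2 null, and from 138, 134 and 126 in Dicer WT to 103, 111 and 109 in Dicer KO. The changes were -0.25 (adjusted p = 0.00647), -0.35 (adjusted p = 0.00120) and -0.29 (adjusted p = 0.000959), with no overlap of libraries. The first was lost without any one of Ago2 fl/fl replicates 2 and 3 and Ago2 ADH replicates 1 and 2 (-0.32 to -0.18) and the second without any one of Ago2 fl/fl replicate 3 and Ago2 null replicate 1 (-0.43 to -0.27). The second was also lost with a replicate block. Rmi1 shares 5.10% of the exon bases of Hnrnpk. Hnrnpa2b1, a relative of Hnrnpa3, was at 54.3, 51.6 and 53.5 CPM in Ago2 fl/fl, 41.8, 44.0 and 42.1 in Ago2 ADH and 43.6 and 52.0 in Ago2 null, and 49.9, 41.4 and 43.5 in Dicer WT and 37.7, 34.6 and 38.1 in Dicer KO. It fell in Ago2 ADH, -0.27 (adjusted p = 0.00131), and gave -0.11 (adjusted p = 0.261) in Ago2 null and -0.28 (adjusted p = 0.0142) in Dicer KO.

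Hnrnph3, of the hnRNP H/F group that binds G-rich RNA, was at 33.7, 29.6 and 29.2 CPM in Ago2 fl/fl, 23.8, 28.6 and 24.1 in Ago2 ADH and 27.6 and 26.0 in Ago2 null, and 30.0, 27.7 and 25.9 in Dicer WT and 20.8, 23.0 and 19.2 in Dicer KO. The mutant libraries were all below their controls, and Dicer KO passed the test at -0.41 (adjusted p = 0.00339), a call lost without any one of Dicer WT replicates 1 and 2 and Dicer KO replicate 3 (-0.47 to -0.34). The Ago2 ADH value was -0.23 (adjusted p = 0.0346). Hnrnpr, an RNA-binding relative of Syncrip, was at 23.7, 25.4 and 21.2 CPM in Ago2 fl/fl, 19.8, 18.8 and 18.8 in Ago2 ADH and 17.1 and 16.8 in Ago2 null, and at 18.2, 18.5 and 21.6 in Dicer WT and 16.6, 15.1 and 16.5 in Dicer KO. It was called in Ago2 null, -0.43 (adjusted p = 0.00194), unless any one of Ago2 fl/fl replicate 2 and Ago2 null replicate 2 was left out (-0.49 to -0.36).

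Hnrnpu, a large nuclear hnRNP that also binds chromatin, was the least changed of the family, at 136, 135 and 142 CPM in Ago2 fl/fl, 126, 127 and 127 in Ago2 ADH and 128 and 132 in Ago2 null, and 225, 209 and 224 in Dicer WT and 231, 228 and 223 in Dicer KO. Its changes were -0.07 (adjusted p = 0.251), -0.04 (adjusted p = 0.571) and 0.05 (adjusted p = 0.473). Hnrnph1 was called down in Ago2 ADH and Hnrnpul2 in Ago2 null and Dicer KO. The other 11 hnRNP genes tested, Hnrnpa1, Hnrnpc and Hnrnpd among them, were called in none of the 3 comparisons by edgeR's quasi-likelihood test. Of these DESeq2 called Hnrnpa0 and Hnrnpul1 down in Ago2 null and Hnrnpdl down in Dicer KO.

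No member separated the catalytically inactive Ago2 from the loss of Ago2. Of 65 members tested between Ago2 ADH and Ago2 null, 0 passed an FDR of 1% with edgeR's quasi-likelihood test and 0 with DESeq2. The edgeR test called 0.118% of all genes. Its unadjusted p was under 0.05 for 6 members, and for 1447 of all 14364 genes tested. The median absolute difference was 0.08 on the log2 scale, with a median SE of 0.0878. This comparison rests on 3 libraries against 2.

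Between the 2 experiments, 2 of 66 members passed the test for a change in Ago2 ADH unlike that in Dicer KO, Hnrnpa3 and Snrpa1, where 3.74% of all genes were called. The Ago2 and Dicer pairs share no library, and their controls themselves differed, the summed share of snRNP genes being 0.0878% of counts in Ago2 fl/fl and 0.0545% in Dicer WT, so the genotype and the set of libraries cannot be told apart in this test. Over the 64 members tested in both, Spearman's rho between the 2 sets of log2 fold changes was 0.725 and Pearson's r 0.792, which describes these genes and is not a test, as genes are not independent replicates. Of the members called in Ago2 ADH, 12 of 20 (60%) were also called in Dicer KO in the same direction, as were 62.2% of all genes called in Ago2 ADH. Of the 15 called in Dicer KO these are 80%, against 74.3% of all genes. Sf3a1, Sf3b6, Srsf1, Srsf7 and Srsf9 were called in both Ago2 mutants and not in Dicer KO, and for none of these 5 did edgeR's quasi-likelihood test call the difference itself. DESeq2 called it for Sf3b6, and called Sf3a1 down in Dicer KO.

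**Figure D3:**
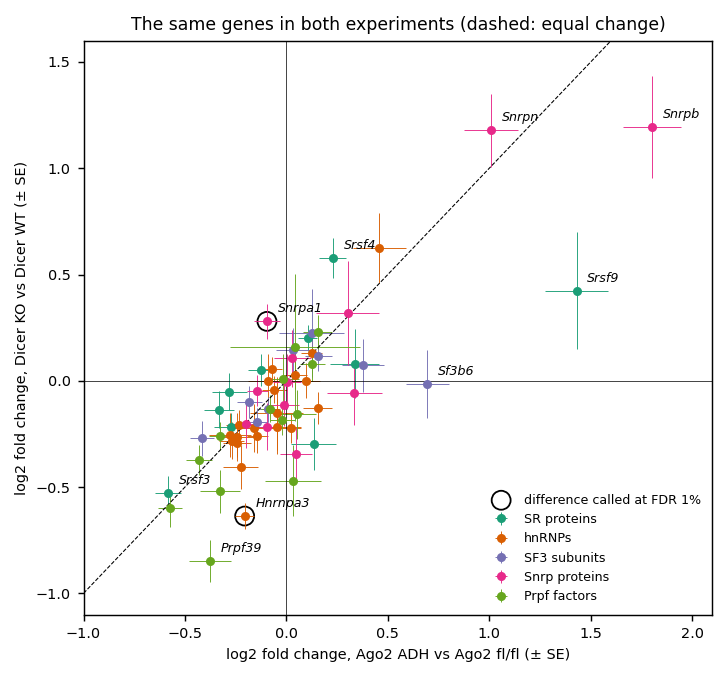
Log2 fold change in Dicer KO (y axis) against that in Ago2 ADH (x axis) for the members tested in both, with standard errors, coloured by family. The dashed line marks equal change. Snrpb and Snrpn lie far up in both, Srsf9 and Sf3b6 lie to the right of the line, and circles mark Hnrnpa3 and Snrpa1, whose difference was called.

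Members with a higher control level tended to have lower fold changes. Over the 64 members tested in Ago2 ADH, Spearman's rho between the level per kb in Ago2 fl/fl and the log2 fold change was -0.309, and over the 65 tested in Dicer KO it was -0.252. Over all genes tested that have a transcript length it was -0.234 and -0.199. Both quantities use the same control libraries and the low members have fewer counts, so these are descriptions of the genes and not tests.

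**Figure D4:**
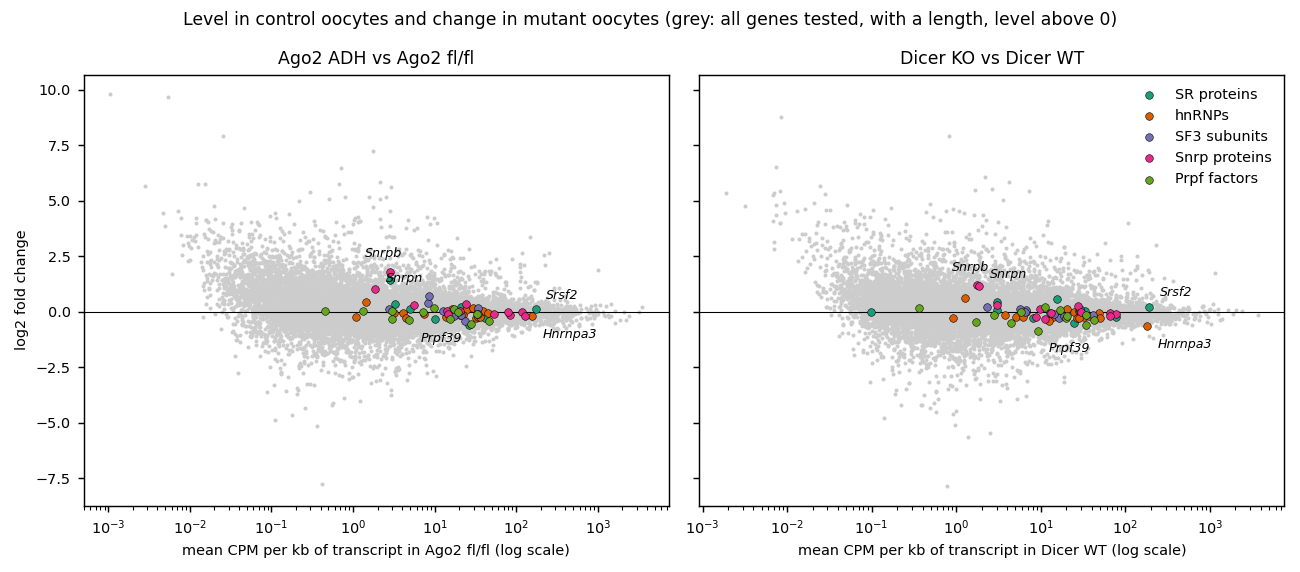
Log2 fold change (y axis) against the mean level in the control oocytes in CPM per kb of transcript (x axis, log scale), for Ago2 ADH in the left panel and Dicer KO in the right one. Grey points are all genes tested and coloured points the members by family. The members lie in the narrow band around 0 at medium to high levels, with Snrpb, at 2.82 CPM per kb in Ago2 fl/fl, highest among them.

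Summed over all 66 genes, the share of counts was lower in every mutant library than in its controls. It was 0.558 ± 0.00429% of the counts on 1 transcript per gene in Ago2 fl/fl, 0.507 ± 0.00129% in Ago2 ADH, 0.576 ± 0.00783% in Dicer WT and 0.505 ± 0.00794% in Dicer KO (SD, n = 3 each), and 0.502% and 0.506% in the 2 Ago2 null libraries. In proportion Prpf genes lost most, from 0.102% to 0.0877% in Ago2 ADH and from 0.115% to 0.0931% in Dicer KO. The hnRNP genes went from 0.192% to 0.174% in Ago2 ADH and from 0.218% to 0.183% in Dicer KO, and the SF3 genes from 0.0850% to 0.0770% and from 0.0781% to 0.0690%. SR genes went from 0.0915% to 0.0871% in Ago2 ADH, whereas in Dicer WT and Dicer KO they were at 0.110% and 0.109%, and that last difference turned in sign when the share was taken of the TMM-scaled library. The snRNP sum, to which Snrpb and Snrpn contribute little, was 0.0878% in Ago2 fl/fl and 0.0818% in Ago2 ADH, and 0.0545% in Dicer WT and 0.0506% in Dicer KO, with overlapping libraries in both pairs.

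**Figure D5:**
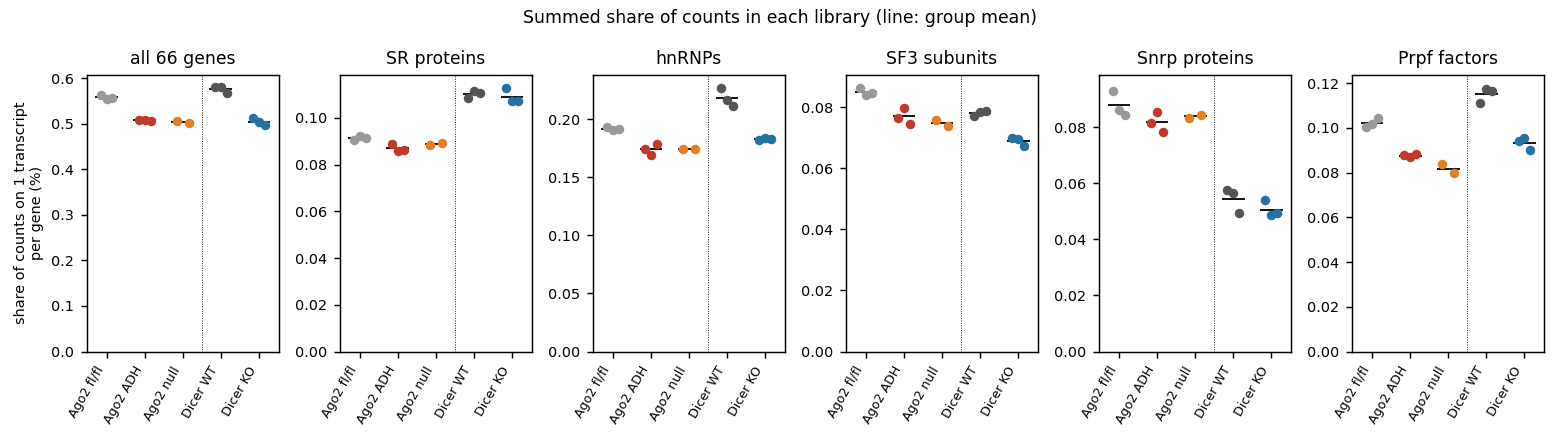
Share of the counts on 1 transcript per gene, in percent (y axis, from 0), taken by all 66 genes and by each family in each library, by group (x axis), with a line at the group mean. For all 66 genes the Ago2 fl/fl libraries sit between 0.555 and 0.563% and the Ago2 ADH libraries between 0.506 and 0.508%.

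The other genes of the pathway, listed with earlier results of these data known, showed calls in both directions. Among other spliceosome components, 11 rose and 12 fell of 67 tested in Ago2 ADH, 11 rose and 10 fell of 68 in Ago2 null and 9 rose and 12 fell of 67 in Dicer KO, shares called of 34.3%, 30.9% and 31.3% against 40.9%, 37.3% and 34.5% of all genes. The genes named from these lists were picked for the size of their change, after their values were seen. Txnl4a, the U5 protein Dim1, went from 41.6 ± 2.93 CPM in Ago2 fl/fl to 112 ± 8.99 in Ago2 ADH and from 33.3 ± 2.03 in Dicer WT to 98.2 ± 5.31 in Dicer KO (SD, n = 3), and changed by 1.47 (adjusted p = 1.06e-12), 1.42 (adjusted p = 5.41e-11) and 1.57 (adjusted p = 4.75e-12) in the 3 comparisons. Lsm1, counted in this list, belongs to the cytoplasmic Lsm ring in mRNA decay rather than to the spliceosome. It rose by 1.42, 1.66 and 0.70 on the log2 scale. Cdc40, a step II factor, gave -0.60, -0.67 and -0.87, the speckle scaffold Srrm2 -0.51, -0.61 and -0.53, and Luc7l3, a U1-associated protein, -0.69, -0.66 and -0.47, all called down.

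Of 37 other splicing regulators, 9 rose and 9 fell in Ago2 ADH, 6 rose and 9 fell in Ago2 null and 4 rose and 10 fell in Dicer KO. The shares called were 48.6%, 40.5% and 37.8%. Of all genes tested, 40.9%, 37.3% and 34.5% were called, the background for each of the 3 lists given here. Mbnl1, a muscleblind protein, rose by 1.25, 1.47 and 0.91, and Matr3, a nuclear matrix RNA-binding protein, was called down at -0.71, -0.67 and -1.15. Among 10 kinases and carriers of SR proteins, 3 rose and 2 fell in each Ago2 mutant and 2 rose and 2 fell in Dicer KO, shares of 50%, 50% and 40%. The SR protein kinases Srpk1 and Srpk2 rose in all 3, by 0.44 and 0.62 in Ago2 ADH and 0.56 and 0.56 in Dicer KO, and Clk1, which phosphorylates SR proteins in the nucleus, was called down at -0.50, -0.58 and -0.21. For snRNP assembly, 5 of 18 genes rose and 3 fell in Ago2 ADH, 6 rose and 2 fell in Ago2 null and 4 rose and 3 fell in Dicer KO, shares of 44.4%, 44.4% and 38.9%. Phax, the export adaptor of snRNAs, rose by 1.67 (SE 0.0724, adjusted p = 4.79e-13), 1.61 (SE 0.0801, adjusted p = 5.29e-11) and 1.40 (SE 0.109, adjusted p = 4.96e-09), and Strap, a partner of the SMN complex, by 0.92, 0.96 and 0.94. Gemin5, which recognises snRNAs for the SMN complex, was called down at -0.45, -0.89 and -1.38.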

How the data were processed

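RNA from 20 full-grown oocytes per library was amplified with a poly-A and random primed kit and sequenced as paired reads of 50 bases, and 14 libraries in 5 groups were analysed. The authors deposited raw counts per RefSeq transcript. Per the labels, reads were aligned to mm10 with TopHat2 2.0.7 and counted with HTSeq 0.6.1 (the study's methods name a strict intersection mode without strand). How a read inside exons of 2 overlapping genes was counted is not shown here. Mapping settings are given for reads of 36 and of 50 bases without naming the libraries they apply to. DESeq 1.10.0 is also named in the submitters' notes.

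Each comparison was fitted on all transcripts of its own libraries with edgeR 4.0.16 in R 4.3.3, after filterByExpr (10 counts, 15 in total) and TMM scaling, by the quasi-likelihood test, with p-values adjusted by Benjamini-Hochberg and calls at an FDR of 1%. Levels are CPM with TMM factors over all 14 libraries, and a standard error is the absolute log2 fold change divided by the square root of F. Depth was 29380403 to 58285057 counts, and the floor of 3 counts covers counting error only. The study's methods describe a separate collection of oocytes from several animals for each replicate, so p-values measure the spread between such pools. The fits were tested on simulated data.

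One member is counted in the totals but not reported by name here. The 66 members and the other lists were chosen with earlier results of these data known. In each family, the genes given in full were the called members with at least 100 normalized counts and the 2 largest rises and falls in Ago2 ADH and in Dicer KO, those called for the difference of the 2 effects or between Ago2 ADH and Ago2 null, those of highest and lowest level per length, and the one least changed. Transcript lengths came from GENCODE transcripts paired with the RefSeq identifiers, and were had for 65 of the 66 members. Alternatives were DESeq2 1.42.0, RLE size factors, all 5 groups in one fit, an FDR of 5%, 1 transcript per gene, no filter or a stricter one (10 counts in each library), a replicate block, leaving out each library and, added after seeing the data, scaling by library size alone and summed levels as a share of the TMM-scaled library.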

Additional observations from a re-analysis of the deposited data

Results flagged for a closer look

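For Snrpa1 the effect of Ago2 ADH and that of Dicer KO differed by -0.43 on the log2 scale (edgeR's quasi-likelihood test of the difference, adjusted p = 0.00858). It stood lower in all 3 Ago2 ADH libraries and higher in all 3 Dicer KO libraries than in their controls. For Hnrnpa3 the effects differed by 0.38 (adjusted p = 0.00283), and all mutant libraries were below their controls in both experiments, further so in Dicer KO. Of 21 alternatives, 14 ended the call of a difference for Snrpa1 and 4 that for Hnrnpa3. Genotype and the set of libraries cannot be told apart in this test. In the alignment tallies, which no comparison of genes uses, reads with several positions gave 2.18 alignments per count in Ago2 ADH and 2.17 in Ago2 null, above 0.776 in Ago2 fl/fl, and 1.41 in Dicer KO, above 0.630 in Dicer WT. These reads were counted on no transcript, and their part in the levels of the splicing genes was not tested.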

How the results depend on the processing

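Of 45 calls on the genes given in full, 28 were kept under each alternative tried and 17 were lost under at least 1. None of these 45 fold changes turned in sign. Of 98 values of these genes that were not called, 14 were called under at least 1 alternative. Some values not called did turn in sign, such as Prpf40b in Ago2 ADH, at -0.28 to 0.41 with 1 library left out. At an FDR of 5%, 31 members were called in Ago2 ADH (22 down), 32 in Ago2 null (10 up), 25 in Dicer KO (18 down) and 4 for the difference of effects (2 up, 2 down), since that threshold admits more. The share of all genes called at that threshold is not given here. With all 5 groups in one fit 4 rose in Ago2 ADH and the median log2 fold change was -0.0951. With library size alone, chosen after seeing the data, 4 rose in Ago2 ADH with a median of -0.0932, 3 rose and 19 fell in Dicer KO with a median of -0.18, and 1 member was called for the difference of effects (0 down, median 0.0380). Under the main scaling those 3 member medians were -0.0481, -0.112 and -0.0304. Library size alone moved the median of all genes from 0.0119 to -0.0328 in Ago2 ADH and from 0.000401 to -0.0606 in Dicer KO. For the difference of effects the median of all genes went from -0.0267 to 0.0415. Requiring 10 counts in every library gave 8 rises in Ago2 null. For the difference of effects DESeq2 called 2 up and RLE size factors 1, with 0 down. The cause of these shifts was not tested. As a share of the TMM-scaled library, the summed level in Dicer KO against Dicer WT was -0.13 on the log2 scale for all members, 0.0482 for SR genes, -0.19 for hnRNPs, -0.12 for SF3 and -0.24 for Prpf genes. Leaving out 1 library each gave 13 to 18 called in Ago2 ADH (4 to 7 up, 9 to 11 down), 15 to 20 in Ago2 null (5 to 6 up, 9 to 14 down), 11 to 17 in Dicer KO (3 to 4 up, 7 to 13 down), 0 to 2 for the difference (0 to 1 up, 0 to 1 down) and a median of 0.00707 to 0.0145 between Ago2 ADH and Ago2 null. The labels number the replicates. The deviations of same-numbered libraries correlated at 0.0507 or less in each mutant against its control, so no pairing by number was seen. With groups of 2 or 3 libraries such deviations cannot exclude a pairing. A replicate block gave 21 calls in Ago2 ADH, 15 in Ago2 null, 12 in Dicer KO (3 up), 0 between Ago2 ADH and Ago2 null with a median of 0.0108, and 0 for the difference (0 up, 0 down). At this depth Hnrnpa1l2-ps2 was not tested in any mutant against its control, nor Srsf12 in Ago2 ADH.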

Other observations

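Genes of the exon junction complex, which splicing leaves on the mRNA, and of nonsense-mediated decay, which reads it, were also called in both directions. Of 18 tested, 4 rose and 5 fell in Ago2 ADH, 2 rose and 6 fell in Ago2 null and 1 rose and 6 fell in Dicer KO (quasi-likelihood test of edgeR, FDR of 1%), shares of 50%, 44.4% and 38.9% against 40.9%, 37.3% and 34.5% of all genes. The genes named here were picked after their values were seen. Magohb, a core subunit of the complex, fell by 0.87 in Ago2 ADH, 0.66 in Ago2 null and 0.74 in Dicer KO on the log2 scale. Smg1, the kinase of Upf1, fell by 0.30, 0.57 and 0.62, and the decay factors Smg6 and Upf2 fell in all 3 as well, Smg6 by 0.45, 0.58 and 0.54. Rbm8a, the partner of Magoh proteins, rose by 0.45 in Ago2 ADH and 0.38 in Ago2 null and gave 0.29 (adjusted p = 0.0253) in Dicer KO. Eif4a3, the RNA clamp of the complex, gave 0.03, 0.09 and 0.10 and was not called.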
